A study of Mus musculus with 12 samples.

Results

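The Hox cluster genes examined here are 38 of the 32093 protein-coding and long noncoding genes of the mouse annotation (GENCODE M21), chosen by name: 10 genes of the HoxA cluster, 10 of HoxB, 9 of HoxC and 9 of HoxD. Each gene was taken with 5 kb on each side, here called its locus, and every region of the authors' 2 lists of differential methylation that touched a locus was assigned to it. DNA came from whole retinas of C57 BL/6J mice at postnatal day 21, pooled from 2 animals per sample. Controls (Cre-, labelled WT) lacked Cre, and Tet tcKO retinas carried floxed alleles of Tet1, Tet2 and Tet3, all deleted in retinal progenitor cells by a Chx10-Cre-GFP transgene. That transgene is mosaic, the mice were bred Cre-positive to Cre-positive to counter this, and whole retina also holds cells that do not arise from retinal progenitors, which the transgene does not target. There were 3 libraries per genotype for whole-genome bisulfite sequencing (WGBS), which reads 5-methylcytosine and 5-hydroxymethylcytosine (5mC and 5hmC) together, and 3 per genotype for bACE-seq, which reads 5hmC alone.

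The deposited lists give 1 mean level per genotype for each region and no value per library. The regions are the authors' calls at an unadjusted p of 0.01 per CpG, no spread between replicates could be computed, and no test was added here. Depth was not analysed, and a locus without a region is not shown to be unchanged. A gain is a region with a higher mean in Tet tcKO and a loss one with a lower mean, and changes are in percentage points, Tet tcKO minus Cre-. RNA of the same retinas was not analysed here, so the identity of the tissue was not checked against expressed markers.

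Hox genes encode homeodomain transcription factors that give cells their position along the head-to-tail axis. They lie in 4 clusters, in which the order of the genes follows the order of their expression domains, so that low group numbers mark the hindbrain and high ones the tail, limbs and genital region. The clusters are rich in CpG islands, are covered by Polycomb proteins where they are silent, and are not usually expressed in the retina or elsewhere in the forebrain. TET enzymes oxidise 5mC to 5hmC, a step towards unmodified cytosine.

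The sequences on which the description rests are shown first, on the plus strand of GRCm38 (mm10) with every CpG in capitals. They were read from the reference genome, and the end of each includes the G of its last CpG. The first set shows gains where the Cre- level was low, most of them short and dense in CpGs: an intron of the Hoxa3 gene model, sequence just upstream of the Hoxa4, Hoxd13 and Hoxd12 start sites, and the intragenic gain with the largest statistic of HoxB.
Hoxa3 intron, gain (chr6:52175888-52176044): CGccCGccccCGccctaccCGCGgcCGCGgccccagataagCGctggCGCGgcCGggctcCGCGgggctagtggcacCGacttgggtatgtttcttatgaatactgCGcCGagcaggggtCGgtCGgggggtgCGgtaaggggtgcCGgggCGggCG
Hoxa4 start, gain (chr6:52191853-52191909): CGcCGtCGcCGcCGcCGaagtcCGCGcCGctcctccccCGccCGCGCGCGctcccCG
Hoxd13 start, gain (chr2:74668149-74668217): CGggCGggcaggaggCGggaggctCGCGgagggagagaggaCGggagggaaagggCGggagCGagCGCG
Hoxd12 start, gain (chr2:74674881-74674962): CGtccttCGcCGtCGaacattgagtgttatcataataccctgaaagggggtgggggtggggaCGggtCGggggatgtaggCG
Hoxb7, gain (chr11:96287373-96287640): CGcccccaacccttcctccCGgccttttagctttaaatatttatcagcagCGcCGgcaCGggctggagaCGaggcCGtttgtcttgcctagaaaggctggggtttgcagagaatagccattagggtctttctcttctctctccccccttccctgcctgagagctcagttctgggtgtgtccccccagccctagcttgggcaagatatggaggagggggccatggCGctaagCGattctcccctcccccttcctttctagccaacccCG

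The next set shows gains in CpG-poorer DNA, where both levels were higher: the gain with the largest statistic of HoxC, upstream of Hoxc8, and the middle of the gain with the largest change of all the Hox loci, within Hoxc4.
Hoxc8 upstream, gain (chr15:102987901-102988122): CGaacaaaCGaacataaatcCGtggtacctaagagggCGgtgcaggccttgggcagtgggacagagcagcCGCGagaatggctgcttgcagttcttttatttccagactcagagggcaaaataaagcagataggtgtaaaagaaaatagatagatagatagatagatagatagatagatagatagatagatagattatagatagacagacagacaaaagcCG
Hoxc4, central bases of the gain (chr15:103019519-103019818): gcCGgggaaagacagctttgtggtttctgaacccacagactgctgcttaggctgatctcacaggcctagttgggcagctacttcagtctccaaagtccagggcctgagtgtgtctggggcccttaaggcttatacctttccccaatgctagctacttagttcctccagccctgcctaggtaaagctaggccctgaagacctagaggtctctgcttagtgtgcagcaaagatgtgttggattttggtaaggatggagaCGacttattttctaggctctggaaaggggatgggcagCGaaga

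The last set shows losses: the WGBS loss within Hoxc9, and the 5hmC losses with the largest statistic of HoxA, HoxC and HoxD.
Hoxc9, loss (chr15:102982225-102982281): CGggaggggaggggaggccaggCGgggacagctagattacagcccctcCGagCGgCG
Hoxa9, 5hmC loss (chr6:52230617-52230757): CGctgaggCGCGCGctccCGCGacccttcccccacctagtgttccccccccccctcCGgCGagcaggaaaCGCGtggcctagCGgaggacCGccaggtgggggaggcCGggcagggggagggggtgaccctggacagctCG
Hoxc12 upstream, 5hmC loss (chr15:102935220-102935342): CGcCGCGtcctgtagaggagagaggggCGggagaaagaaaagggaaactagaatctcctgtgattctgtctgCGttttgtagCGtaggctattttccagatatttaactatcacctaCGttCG
Hoxd1, central bases of the 5hmC loss (chr2:74763895-74764194): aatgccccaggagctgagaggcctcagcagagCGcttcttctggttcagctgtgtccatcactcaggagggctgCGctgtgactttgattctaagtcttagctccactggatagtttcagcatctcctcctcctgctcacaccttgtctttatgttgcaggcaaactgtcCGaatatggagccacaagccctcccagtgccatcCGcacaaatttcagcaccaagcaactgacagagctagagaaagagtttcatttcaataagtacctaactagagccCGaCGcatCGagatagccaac

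The comparison asks how DNA modification differed in retinas without TET enzymes, and the Hox loci held fewer called regions than gene loci at large. Of the 38 genes, 20 had a WGBS gain in their locus (52.6%), where 76.2% of all genes did, and 11 had a 5hmC loss (28.9%), where 88.8% of all genes did. WGBS losses touched 3 loci (7.89%), against 4.35% of all genes. No Hox locus held a 5hmC gain, against 0.343% of all genes. Of the 38 genes, 13 (34.2%) had no region of any kind, against 10.4% of all genes.

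The shares of bases lay further apart. The median Hox locus had 0.427% of its bases in WGBS gains, against 3.40% over all genes, and 36 of the 38 loci were under that all-gene median. For 5hmC losses the median Hox locus was at 0, against 26.6% over all genes, and all 38 were under that median. Hox loci were also CpG-dense, with a median of 2.78 CpGs per 100 bp (range 1.31 to 3.79) against 1.12 over all genes, and 34 of the 38 lay in the tenth of genes with the most CpGs per base. Of the genes in that class, 90.6% of genes had a WGBS gain and 97.3% a 5hmC loss, with medians of 8.08% and 44.7% of bases, so the sparse regions of the Hox loci were not shared by the genes of like CpG density taken as a whole. Of the 34 Hox genes in it, 18 had a gain and 8 a 5hmC loss.

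Against windows of the genome rather than genes, the difference was milder. The genome was cut into 24013 windows of 100 kb, with medians of 2.40% of bases in gains and 14.4% in 5hmC losses. The window holding most of each cluster had 0.304% (HoxA), 0.967% (HoxB), 1.10% (HoxC) and 0.699% (HoxD) of its bases in gains, and 18.3 to 33.7% of all windows had as small a share or a smaller one. For 5hmC losses the windows were at 4.26%, 4.31%, 0.366% and 7.21% in the same order, and 7.02 to 37.0% of all windows had no more. All 4 windows were below both medians, though none was extreme, while in their number of CpGs they were among the first 0.0208 to 0.750% of windows. The windows were not fitted to the clusters: each took in sequence outside the loci and left out part of its cluster. The joined loci had 5hmC losses over 0.332% (HoxA), 0.410% (HoxB), 0.305% (HoxC) and 2.96% (HoxD) of bases. The position of the windows is therefore not that of the loci alone.

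**Figure D1:**
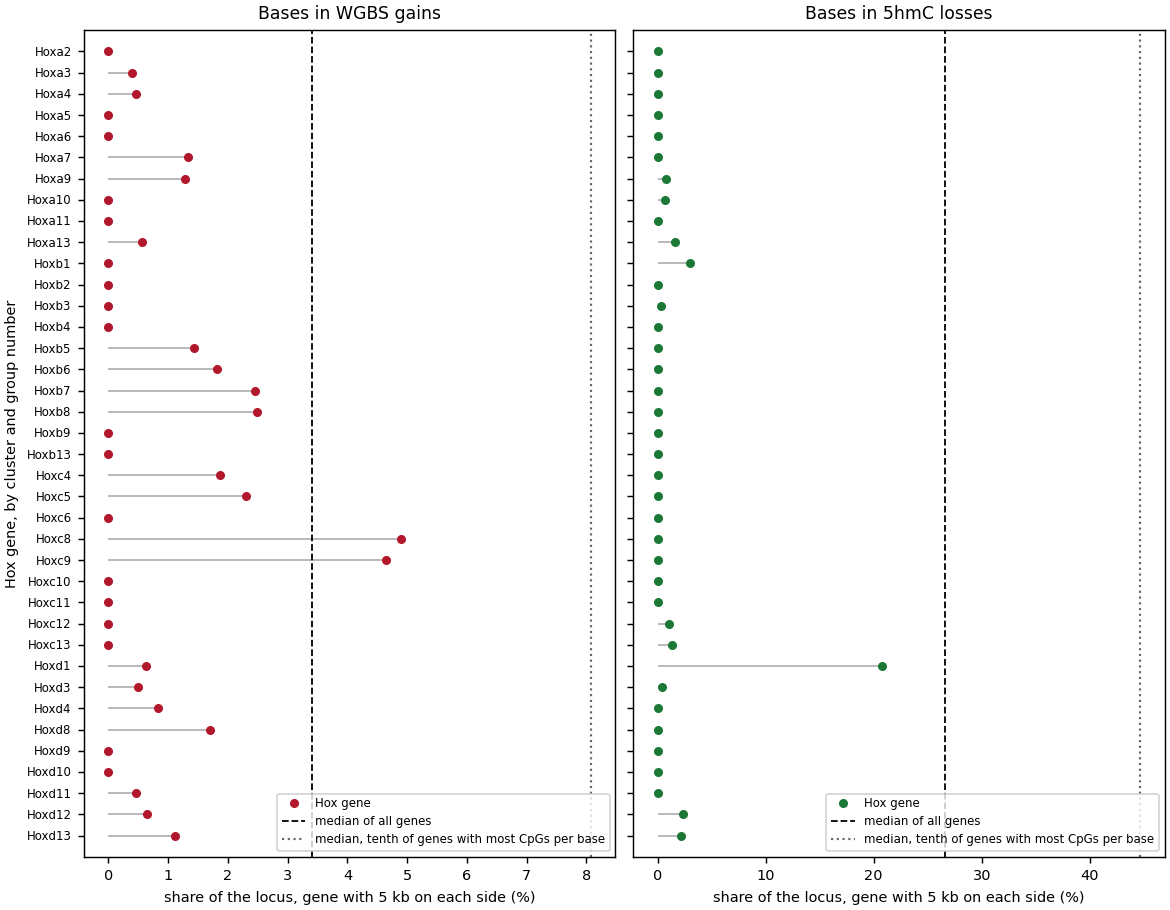
Share of each Hox locus (gene with 5 kb on each side, in percent of its bases) in WGBS gains, left, and in 5hmC losses, right, 1 point per gene; dashed lines mark the median of all 32093 genes and dotted lines the median of the tenth with the most CpGs per base. Hoxc8 and Hoxc9 are past the dashed line on the left, and no gene is past it on the right, where Hoxd1 at 20.8% comes nearest.

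Over the 445 kb and 11433 CpGs of the joined loci there were 34 regions: 18 WGBS gains, 2 WGBS losses and 14 5hmC losses. That is 15.7 gains per 10000 CpGs, against 87.4 genome-wide, and 12.2 5hmC losses, against 271. WGBS losses were at 1.75 per 10000 CpGs against 1.22, a figure that rests on 2 regions. Because neighbouring loci overlap, a region can count for several genes: the Hoxc5 gene model, for example, spans Hoxc9, Hoxc8 and Hoxc6. Gene counts are therefore not independent of each other, and the counts over the joined loci use each region once.

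The regions that were called were short and low. Hox gains had a median length of 103 bp against 380 bp for all gains, while both had a median of 7 CpGs. Hox gains had a median Cre- level of 7.75% against 64.1%, and a median change of 5.05 points (range 1.74 to 19.5) against 15.4. Weighted by CpGs, they went from 11.1% to 16.3%, where all gains together went from 56.7% to 74.1%. The Cre- level was under 10% in 10 of the 18, or 55.6%, against 1.49% of all gains. The change was under 5 points in 9 of the 18, or 50.0%, against 1.82%.

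These 18 gains differed among themselves along the line of the sequences shown above. The 10 with a Cre- level under 10% had a median GC content of 73.8% and 10.3 CpGs per 100 bp, and changed by 1.74 to 6.21 points. The other 8 had a median GC content of 47.9% and 3.94 CpGs per 100 bp, started from 12.9 to 57.9% and changed by 6.48 to 19.5 points. HoxC held 5 of these 8 and all 4 HoxD gains were of the low kind. The boundary of 10% was chosen after the values were seen. Conversion in WGBS was not analysed here, so how much of a level under 10% is unconverted cytosine is not known.

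**Figure D2:**
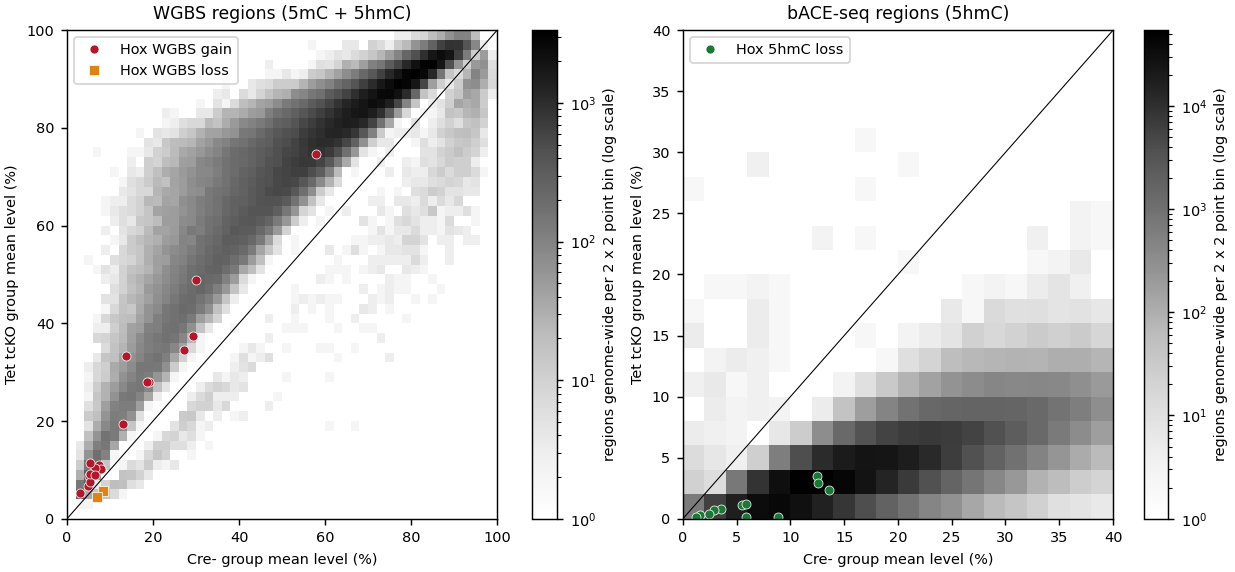
Group mean level in Tet tcKO against Cre- for the regions at Hox loci (coloured points) over all regions of each list (grey, number of regions per bin of 2 by 2 points on a log scale), for WGBS on the left and bACE-seq on the right, with the line of equal levels. Hox gains crowd at the lower left of the WGBS panel, with 10 of 18 under 10% in Cre-, while the bulk of all gains lies at the upper right.

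A larger share of Hox gains than of all gains lay near transcription start sites: 5 of 18 (27.8%) were within 500 bp and 13 (72.2%) within 2 kb of one, against 2.97% and 10.5% of all gains. The loci were defined by genes, so nearness to start sites is partly built into the choice of regions. The same values for 5hmC losses were 2 of 14 (14.3%) and 6 (42.9%), against 1.72% and 7.58%.

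WGBS gains and 5hmC losses rarely met at the Hox loci. Of the 18 gains 1 (5.56%) overlapped a 5hmC loss, at Hoxd1, where 81.1% of all gains did. Of the 14 5hmC losses 1 (7.14%) overlapped a gain, against 24.1% of all 5hmC losses. By gene, 7 Hox loci had regions in both lists, 14 in the WGBS list alone and 4 in the bACE-seq list alone.

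HoxA, on chromosome 6, had 5 gains over 0.484% of the 107 kb of its loci, with a weighted level of 10.8% in Cre- and 14.3% in Tet tcKO. The gain with the largest statistic was in an intron of the Hoxa3 gene model, a gene needed for the organs of the pharyngeal arches: its 22 CpGs over 156 bp went from 7.55% to 10.9%. Another stood 127 bp upstream of the start of Hoxa4, where 15 CpGs in 56 bp with a GC content of 87.7% went from 4.94% to 6.67%, the smallest change among the Hox gains.

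A pair within Hoxa7, a gene of trunk identity, had the highest levels of this cluster, from 29.4% to 37.5% and from 27.2% to 34.5%. It also counts for the neighbouring Hoxa9. In Hoxa13, which patterns the digits and the genital tubercle, 13 CpGs in an exon with coding and untranslated sequence, 227 bp from the start site, went from 7.94% to 10.1%.

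The 3 5hmC losses of HoxA covered 0.332% of bases and went from 3.02% to 0.136%. The one with the largest statistic lay in a transcript of Hoxa9, a gene also known from blood progenitors, and within 5 kb of Hoxa10: its 14 CpGs were at 1.36% in Cre- and 0.147% in Tet tcKO, a Cre- level that cannot be told apart from incomplete conversion. Both others flanked Hoxa13. One, 3986 bp downstream of its start, went from 8.87% to 0.157%, and one in the noncoding gene Hottip, 4934 bp upstream, from 1.47% to 0.0705%. Hoxa2, which sets the identity of the hyoid arch, and Hoxa5, Hoxa6 and Hoxa11 had no region.

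HoxB, on chromosome 11, had the fewest gains: 3 over 0.445% of 116 kb, from 18.7% to 25.6%. The one with the largest statistic was in Hoxb7, 883 bp downstream of its start, where 10 CpGs went from 5.19% to 8.70%. It lay within 5 kb of Hoxb6 and Hoxb8 too, and a further gain 1164 bp upstream of Hoxb7 went from 6.53% to 10.4%. These placed Hoxb7 at 2.45% of bases in gains and Hoxb8 slightly above it, next in order after Hoxc8 and Hoxc9.

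The third, in the untranslated sequence of Hoxb5, 2422 bp from its start, had the highest levels of any Hox region, 57.9% in Cre- and 74.6% in Tet tcKO over 5 CpGs. These levels were nearer to the medians of all gains, 64.1% and 82.2%, than to those of the Hox gains, 7.75% and 11.1%.

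Hoxb3, a hindbrain gene, held 1 of the 2 WGBS losses. At chr11:96344053-96344106, in its untranslated sequence 311 bp from a start site, 4 CpGs went from 8.27% to 5.75%. The same bases began a 5hmC loss of 7 CpGs, from 1.60% to 0.304%. Both changes were in the same direction. The WGBS change was -2.52 points over 4 CpGs and the 5hmC change -1.30 points over 7, so their sizes are not for the same CpGs. The noncoding gene Hoxb3os overlaps both regions.

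Upstream of Hoxb1, which specifies the part of the hindbrain that gives rise to the facial nerve, 6 CpGs 4387 bp from the start went from 12.5% to 3.48% in 5hmC. This was 2.97% of the locus, and the 2 5hmC losses of HoxB together covered 0.410% of bases. Hoxb1 also had the lowest CpG density of the 38, 1.31 per 100 bp. Hoxb2, Hoxb4, Hoxb9 and Hoxb13 had no region.

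HoxC, on chromosome 15, had the most gains: 6 over 1.15% of 120 kb, from 16.9% to 28.1%. The leading loci were Hoxc8 at 4.89% and Hoxc9 at 4.64% of bases, genes that mark the brachial and thoracic spinal cord. They share 3 gains that follow each other closely between the genes, 2807, 2596 and 2241 bp upstream of the Hoxc8 start. The first, with 7 CpGs, went from 12.9% to 19.4%, the next, also with 7 and with the largest statistic of HoxC, from 18.7% to 28.0%, and the last, with 5, from 29.9% to 48.9%. Level and change rose from the first to the last, as CpG density fell from 7.37 to 3.17 to 1.45 per 100 bp.

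Within Hoxc9 itself, 6 CpGs 1902 bp from the start were higher by 8.90 points and reached 27.9%, and 4 in its untranslated sequence went from 5.23% to 11.4%. Between them stood the other WGBS loss, at chr15:102982225-102982280, where 5 CpGs went from 6.86% to 4.39%. No 5hmC loss overlapped it. The gain in Hoxc4, 734 bp downstream of a start site, had the largest change of the 34 regions: 5 CpGs over 519 bp went from 13.8% to 33.3%.

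The 2 5hmC losses of HoxC stood at the other end of the cluster and covered 0.305% of bases. At Hoxc12, 8 CpGs 1477 bp upstream of the start went from 1.19% to 0.143%, and at Hoxc13, a gene of hair and nail formation, 5 CpGs 1305 bp upstream went from 5.89% to 0.140%. Hoxc6, Hoxc10, which acts in lumbar motor neurons, and Hoxc11 had no region.

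HoxD, on chromosome 2, was the cluster with the most 5hmC loss, 7 regions over 2.96% of 102 kb, from 6.88% to 1.34%. Its 4 gains covered 0.443% of bases at the lowest levels of the 4 clusters, 4.24% to 6.58%. A pair of them stood just upstream of start sites: 128 bp from Hoxd13, a digit-patterning gene, 10 CpGs went from 5.44% to 7.52%, and 92 bp from Hoxd12, 7 CpGs went from 5.45% to 9.21%. The gain with the largest statistic, 27 CpGs in an untranslated exon of Hoxd3 that is also part of the Hoxd4 model, went from 3.12% to 5.19%. It lay within 5 kb of Hoxd8 too.

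Hoxd1, which in mammals acts in pain-sensing neurons, had by far the largest 5hmC share of the 38. Its locus had 20.8% of its bases in 5hmC losses, where the next, Hoxb1, had 2.97%. From its coding exons outward, 19 CpGs over 609 bp went from 5.87% to 1.18%, 15 CpGs over 1342 bp reaching into its untranslated sequence went from 13.6% to 2.36%, and 5 CpGs over 575 bp beyond the gene, 4596 bp from the start, went from 12.6% to 2.91%. A gain of 4 CpGs, from 6.62% to 8.97%, overlapped the edge of the first. Hoxd1 is the last gene on its side of the cluster, and its share was still under the all-gene median of 26.6%.

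The other 4 HoxD losses were smaller. Between Hoxd13 and Hoxd12 stood 2, from 5.46% to 1.13% and from 3.55% to 0.789%, each with 7 CpGs. In the noncoding gene Haglr, between Hoxd3 and Hoxd1, stood 2 more, from 2.91% to 0.709% over 7 CpGs and from 2.46% to 0.424% over 11. Hoxd9 and Hoxd10 had no region.

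**Figure D3:**
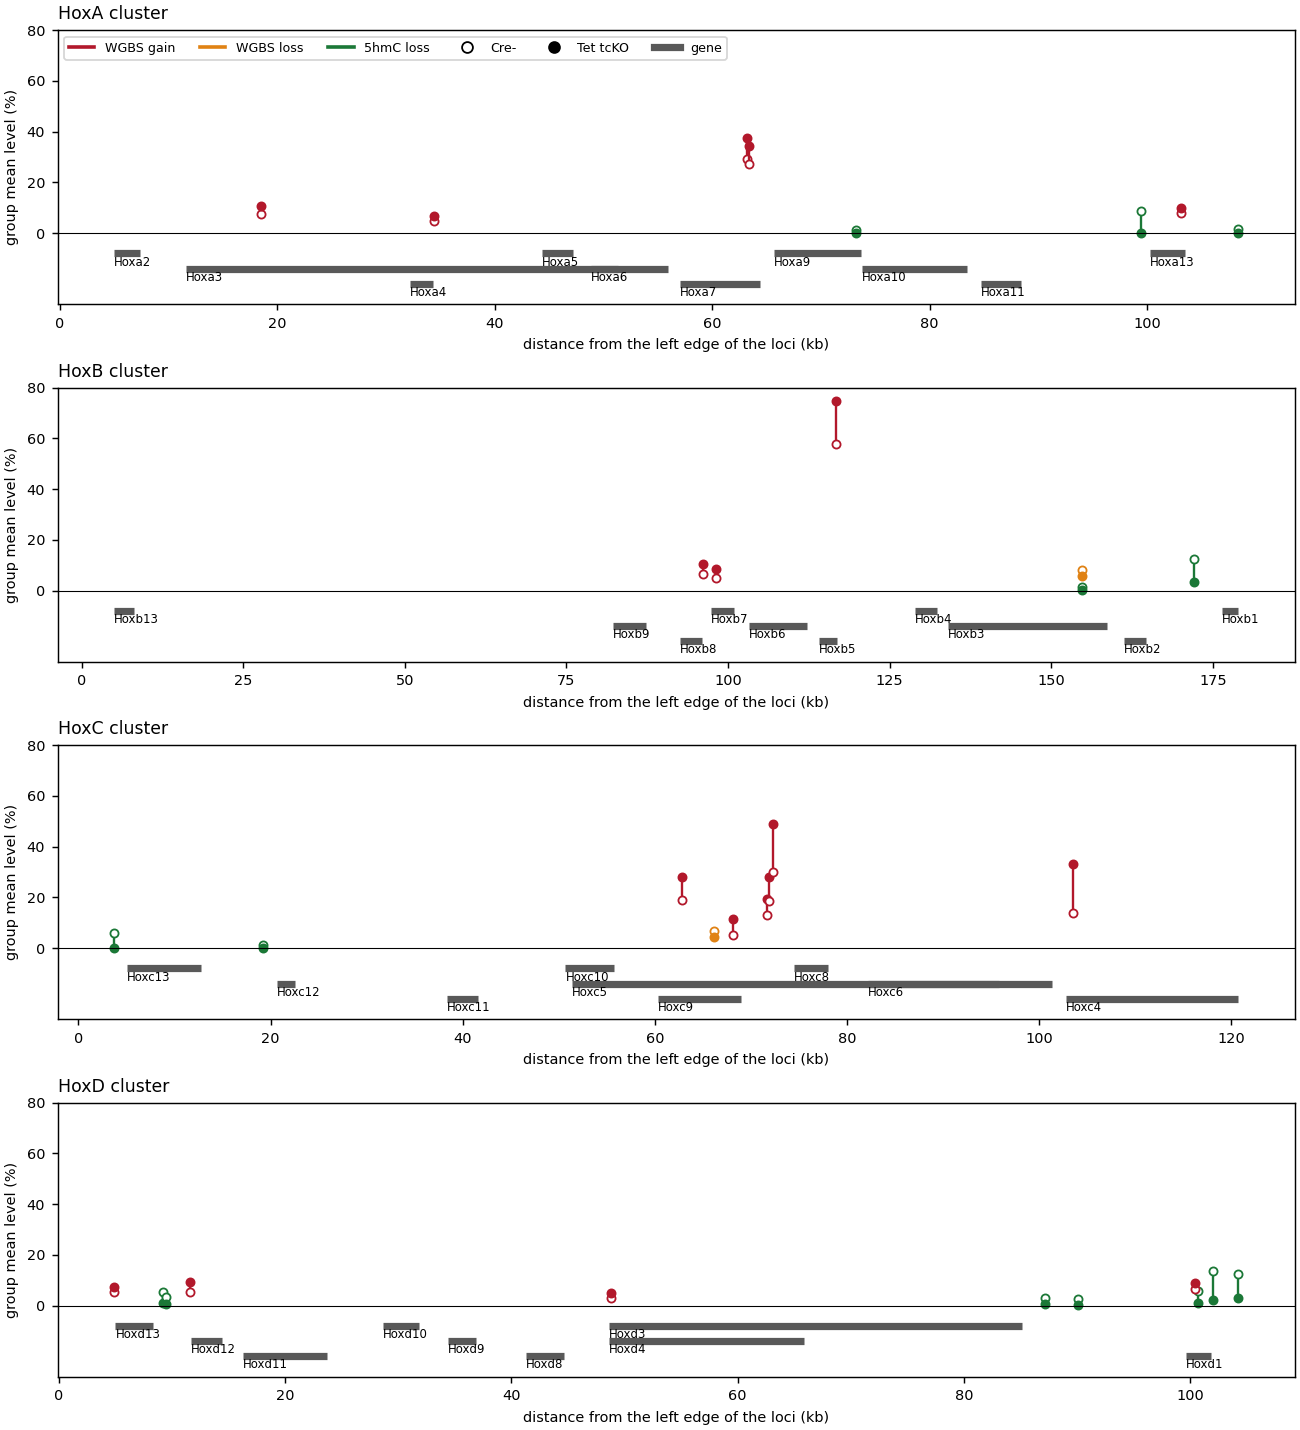
The 4 Hox clusters drawn to scale, with distance from the left edge of the loci in kb on the horizontal axis, genes as grey bars, and the group mean level in percent of each of the 34 regions in Cre- (open circle) and Tet tcKO (filled circle) on the vertical axis. Long stretches carry no region, and 5hmC losses of HoxD gather around Hoxd1.

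Across the 14 5hmC losses the Cre- level ran from 1.19 to 13.6%, and 11 (78.6%) were under 10%, against 23.0% of all 5hmC losses. Tet tcKO levels ran from 0.0705 to 3.48%, and 9 were under 1%. Weighted by CpGs, 5.69% became 1.03%, so that 18.1% of the Cre- level was kept, against 24.0% over all 5hmC losses. The kept share ran from 17.2 to 24.4% in the 7 regions of HoxD and was 18.9% and 27.8% in the 2 of HoxB. It ran from 1.77 to 10.8% in the 3 of HoxA, and the 2 of HoxC were also under the HoxD range. In 4 of the 14 the Cre- level itself was under 2%, among them the losses at Hoxa9, Hoxb3 and Hoxc12. Such Cre- levels are no higher than the share of unmodified cytosines that escaped conversion in bACE-seq by the study's own estimate, which was not recomputed here. They are the deposited means and cannot be told apart from that background. The weighted Tet tcKO level of 1.03% and most single Tet tcKO levels were under that estimate too. The kept shares, and their differences between clusters, therefore cannot be told apart from differences in background. At levels this low a few reads decide a share, and how many there were is not known here.

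By group number, which follows the axis of the body, the 15 genes of groups 4 to 8 included 11 with a WGBS gain and 0 with a 5hmC loss. The gains are near the share over all genes, 76.2%, and the 5hmC losses are not near the 88.8% of all genes. Of the 23 of groups 1 to 3 and 9 to 13, 9 had a gain and 11 a 5hmC loss. All 3 measured members of group 8 and both of group 7 had a gain, while both of group 2 had no region. These classes were drawn after the values were seen and neighbouring genes share regions, so the counts describe these lists, and the difference between the classes was not tested.

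Outside the loci the share of bases in regions was larger with distance. Summed over both sides of the 4 clusters, WGBS gains covered 0.645% of bases in the loci, 1.17% in the first 50 kb outside, 3.64% from 50 to 100 kb, 5.03% from 100 to 200 kb and 7.40% from 200 to 500 kb. 5hmC losses covered 0.949%, 10.3%, 20.0%, 25.7% and 31.9% in the same order. The medians over single windows of 100 kb were 2.40% and 14.4%. The first 50 kb were below both and the bins from 50 kb outward above both. A share summed over all sides and a median of windows are unlike measures, so the position against the genome is only rough. From 50 to 100 kb, single sides ran from 0 to 10.7% for gains and from 4.26 to 34.6% for 5hmC losses. CpG density outside was flat, at 0.978 to 1.11 per 100 bp. The sides differed. Before HoxD, towards Evx2, there was no gain within 100 kb and 5hmC losses covered 3.49% of the first 50 kb, while beyond HoxB, on the Hoxb1 side, gains covered 3.49% of the first 50 kb and 10.7% of the next.

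**Figure D4:**
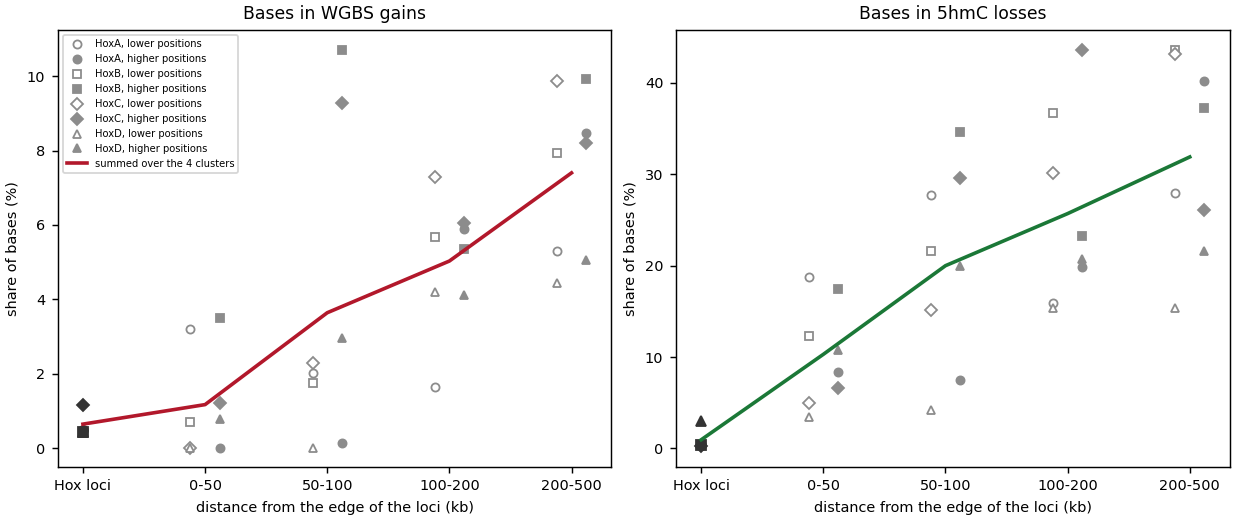
Share of bases in WGBS gains, left, and in 5hmC losses, right, within the Hox loci and in 4 distance bins outside them in kb; dark points are clusters, grey points the lower (open) and higher (filled) positions beside each cluster, and the line is the sum over all. The line climbs from 0.645% to 7.40% for gains and from 0.949% to 31.9% for 5hmC losses.

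The genes whose proteins work with Hox proteins are given for comparison. All 9 genes of the TALE cofactors, the Pbx, Meis and Pknox proteins that bind DNA together with Hox proteins, had a WGBS gain and a 5hmC loss, as had 76.2% and 88.8% of all genes, with medians of 8.82% and 49.1% of bases against 3.40% and 26.6%. Meis1 had 20.7% of its bases in gains and 49.1% in 5hmC losses, and Pbx2 28.8% and 54.3%. Meis3, at 1.09% and 12.9%, was below both all-gene medians, and Pbx4 was below that for gains at 2.59% but not that for 5hmC losses at 29.2%.

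The 15 Polycomb and trithorax genes, whose proteins keep Hox clusters silent or active, likewise all had both, beside the same 76.2% and 88.8% of all genes, with medians of 8.47% and 47.6%. Jarid2 had 24.6% of its bases in gains and Suz12 0.604%. Within this list Cbx2 and Cbx8, chromodomain subunits of a Polycomb complex, also had WGBS losses, over 1.36% and 8.89% of bases.

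The genes most like Hox genes in kind stood close to them. The list held 10 homeobox genes related to the Hox genes or next to a cluster, ParaHox genes among them. Of these 10, 5 had a gain and 5 a 5hmC loss, beside 76.2% and 88.8% of all genes. Their medians were 0.225% and 0.703% of bases, against 3.40% and 26.6% over all genes. Evx2, next to Hoxd13, and Gsx2 had no region, and Evx1, next to Hoxa13, had gains over 0.450% and no 5hmC loss. Gbx1 was the exception with 9.59% and 40.4%.

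Of 9 homeobox genes with known roles in the retina, 8 had a gain and 9 a 5hmC loss, beside 76.2% and 88.8% of all genes. Their median share of bases was 14.7% in gains, against 3.40% over all genes. In 5hmC losses it was 25.9%, slightly below the 26.6% over all genes. Crx, the photoreceptor factor, had 75.6% of its bases in gains, and Otx2, which acts upstream of it, 47.6%. Vsx1, at 1.61% in gains and 14.0% in 5hmC losses, was below both all-gene medians. Six6, an eye field gene, had no gain, and 46.6% of its bases were in WGBS losses. Six3 had 17.7% of its bases in WGBS losses and 7.30% in gains. CpG density did not separate these lists in the same way. The medians were 2.68 per 100 bp for the list with the ParaHox genes and 2.18 for the retinal homeobox genes. They were 1.68 for the Polycomb and trithorax genes and 1.09 for the cofactors.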

How the data were processed

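Retinal DNA was profiled by WGBS and bACE-seq. As the study's methods state, reads were trimmed by the authors (Trim Galore 0.4.4), aligned to mm10 (Bismark 0.18.2), kept from a mapping quality of 10 upwards and freed of duplicates. The authors then extracted CpG levels (MethylDackel 0.6.1) and called regions with DSS 2.48.0 (smoothed levels, p threshold 0.01, at least 3 CpGs and 50 bp, merged within 50 bp). Each deposited group mean is a fraction of reads that kept the modification signal, given here in percent. The deposited area statistic is a score that sums the test statistics of a region, used here to rank regions. The order of the groups follows the authors' names for the lists, and conversion rates were not analysed here.

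Here, regions overlapping a locus by at least 1 bp were counted with Python 3.11.15, numpy 2.4.6 and pandas 2.3.3, and cluster levels were weighted by CpGs. All 34 regions at Hox loci had the CpG number of the reference. The members and gene lists were chosen with earlier results of these data known. Named are, by rule, the clusters, the 3 members with the largest shares, those without a region, every WGBS loss, and the regions with the largest statistic per cluster or the largest changes with 10 or more CpGs. Other regions were added after their values were seen. The interval counting was checked on simulated regions. Alternatives changed the flank, the regions kept, the window, the weights and the background. The area statistic never went against the difference at a Hox locus.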

Additional observations from a re-analysis of the deposited data

How the results depend on the processing

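Of the 85 alternative values of 13 results, 49 did not move, 36 moved and none reversed. The lack of reversals carries no weight, because the results are counts, shares, or mean changes within regions already chosen by direction. Taking the direction from the area statistic changed no value. With no flank, 11 member loci had a WGBS gain and 3 a 5hmC loss, 4 5hmC losses remained in the joined loci, and the 5hmC change was -5.15 points. With a flank of 10 kb, 5 loci had a WGBS loss. With regions of at least 10 CpGs, 10, 0 and 4 loci had a gain, a WGBS loss and a 5hmC loss, from 6, 0 and 4 regions, and the WGBS change of the gains was 2.47 points. With group means differing by at least 0.1, 6, 0 and 1 loci had them, from 3, 0 and 1 regions, with changes of 18.4 and -11.2 points. With 2 kb on each side of start sites, 10, 1 and 4 loci had them, from 11, 1 and 5 regions, with changes of 3.94 and -5.62 points. The median share of bases in gains was 0 with no flank, with a flank of 2 kb and under these last 3 settings, and 1.11% as a share of CpGs. With equal weights the change of the gains was 7.02 points. Among the tenth of genes with the most CpGs per base, a background chosen after seeing the data, 90.6% had a gain. The settings that lowered a count keep fewer bases or regions by construction, and the wider flank, which takes in more bases, lowered no count. The lists hold 1 mean per group, so no replicate could be left out, and the depth behind a level is unknown. No paired analysis was possible because the lists carry no replicate values.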

Other observations

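Between regions of either list, the autosomes held 604579 stretches without a region, with a median of 8 CpGs and 1140 bp. The stretch from just past the Hoxd12 start gain to the Hoxd3 gain, chr2:74674962-74712006, had 1296 CpGs over 37.0 kb and ranked 86 by its number of CpGs. It holds Hoxd12, Hoxd11, Hoxd10, Hoxd9 and Hoxd8. The largest such stretches of the other clusters had 947 CpGs around Hoxb9 and Hoxb8, 824 around Hoxa5 and Hoxa6, and 744 around Hoxc11 and Hoxc10. They ranked 199, 266 and 333. Coverage was not analysed here, so a stretch without reads cannot be told apart from a stretch without a difference.

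At a density of at least 2 CpGs per 100 bp and at least 500 CpGs, limits chosen after the values were seen, 49 stretches were left, and the HoxD stretch had the most CpGs of them. Hox genes examined here were in 10 of the 49, which touched 29 of the 38 genes. The next by CpGs overlapped the predicted gene Gm20388, with 1134 CpGs over 21.0 kb, and one of the last overlapped Flg, with 510 over 8.65 kb. Further examples were chosen after their names were seen. Sox1 had 862 CpGs over 21.3 kb, Dmrta2 790 over 32.8 kb, Pax3 727 over 27.4 kb and Otp 686 over 24.4 kb. Evx2, beside Hoxd13, had 661 over 28.4 kb. Some of these genes act in the eye: the stretch at Pou4f1, a gene of retinal ganglion cells, had 699 CpGs over 23.2 kb, and that at Pax2, a gene of the optic stalk, 559 over 16.1 kb.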
